A study of Mus musculus with 6 samples.

Results

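Photoreceptor and phototransduction genes were followed on microarrays of the mouse ganglion cell layer after optic nerve crush. The set holds 39 genes, chosen by symbol for their known place in rods (12 genes), cones (10 genes) or both cell classes (17 genes). The rule for choosing them used no measured value, although earlier results of these data were known when the set was drawn up. For each gene the probe set with the highest mean intensity over the 6 arrays was used, and that mean had to reach 40. This left 35 of the 39 genes, made up of 11 rod, 9 cone and 15 shared genes, out of 15103 genes measured in all. Gucy2e, a photoreceptor guanylate cyclase, had a mean of 27.9 and fell under the minimum, and Nr2e3, Cnga3 and Gucy2f were not analysed here.

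The samples were 3 control eyes and 3 crushed eyes of male C57BL/6J mice, all taken 6 hrs after the injury, and each eye gave 1 array. In the crushed eyes the optic nerve was pinched with fine forceps behind the globe. The control eyes were the uninjured fellow eyes of those animals, whose age was not given in the sources used here, so that both groups came from animals that had undergone surgery. About 6000 cells outlined in the ganglion cell layer were cut from frozen sections of each eye by laser, and their RNA was amplified before hybridization. The values are linear signal intensities. Each crushed eye was set against the control eye of the same number, and the pairs are called pair 1, pair 2 and pair 3. The labels do not state that equal numbers mark the same animal, so this pairing is an assumption. In bulk samples of this kind, fewer cells of a type and less RNA per cell cannot be told apart.

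Rods and cones turn light into a change of membrane voltage in the outer retina. A photon isomerizes the retinal of an opsin, the opsin activates transducin, transducin releases the inhibition of phosphodiesterase 6, and the fall in cyclic GMP closes the cation channels of the outer segment. Arrestin, receptor kinase and the RGS9 complex end the response, and guanylate cyclase with its activating proteins restores cyclic GMP. The ganglion cell layer holds RGCs, displaced amacrine cells, astrocytes, microglia, vessels and processes of Muller cells, and in a normal retina the cell bodies of rods and cones lie outside it.

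The promoters of these genes were searched for letters that the choice of the genes did not use. Promoters were at hand for 25 of the 35 measured genes, and they number 27 because Unc119 has several. TAATCC, the core bound by Crx and Otx2, which are homeodomain transcription factors of photoreceptors, or its complement GGATTA lay within 250 bases before the start in 10 of 27 promoters of the genes, or 37.0%, against 6.25% of all 32851 promoters. The letters TGCTGA or TCAGCA, part of the element that Maf factors such as Nrl bind, lay in 7 of the 27, or 25.9%, against 16.1% of all promoters. A match describes the letters in this window and is not a binding site shown by these data. Shown here are the 150 bases before the start of 4 genes, 5′ to 3′ on the strand of the gene, from RefSeq on build GRCm38.p6, with TAATCC or GGATTA in capitals. They were picked, with the values known, to show a match in a rod transducin gene, a rod channel gene, a cone transducin gene and the gene of Crx itself. Gngt1 lies on the plus strand with its shown bases at chr6:3993858-3994007, Cngb1 on the minus strand at chr8:95306586-95306735, Gnat2 on the plus strand at chr3:108092916-108093065 and Crx on the minus strand at chr7:15879956-15880105. Counted back from the start, the match of Gngt1 begins at position -44 and that of Gnat2 at position -19.
Gngt1: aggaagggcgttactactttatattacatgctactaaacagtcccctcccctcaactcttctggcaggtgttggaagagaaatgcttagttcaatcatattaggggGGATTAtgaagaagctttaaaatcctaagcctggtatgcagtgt
Cngb1: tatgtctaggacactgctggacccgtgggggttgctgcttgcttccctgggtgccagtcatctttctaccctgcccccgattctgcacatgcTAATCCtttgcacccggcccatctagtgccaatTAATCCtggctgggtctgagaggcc
Gnat2: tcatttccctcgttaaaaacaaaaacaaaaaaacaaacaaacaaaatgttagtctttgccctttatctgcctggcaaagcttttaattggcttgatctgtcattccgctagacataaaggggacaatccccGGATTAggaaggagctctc
Crx: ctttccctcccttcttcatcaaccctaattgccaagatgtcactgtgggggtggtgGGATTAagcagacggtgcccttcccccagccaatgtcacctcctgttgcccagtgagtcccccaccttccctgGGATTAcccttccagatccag

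Some arrays were unlike the rest in a principal component analysis, with crush eye 2 alone at one end of component 1 (44.2% of the variance) and crush eye 3 alone at one end of component 2 (27.8%), while median intensities lay between 131 and 154. On no crush array did any of the 35 genes lie below or above all other arrays by more than 1 on the log2 scale. On the array of control eye 3, Pde6c and Prph2 did lie below all others by that margin. The counts of genes above 0 and of genes lowest in control eye 3 were therefore also made without crush eye 2 or crush eye 3. The markers of RGCs (14 measured genes) had nearly the same summed intensity on the 3 control arrays, from 64974 to 66837.

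No photoreceptor gene differed between crushed and control eyes past an adjusted p under 0.05 (limma with the pair as a block, Benjamini-Hochberg over 33169 probe sets; adjusted p from 0.642 to 0.956). By the unadjusted p under 0.05, 1 of the 35 genes was higher after crush, against 2.76% of all genes, and 0 were lower, against 2.27% of all genes. The log2 fold change was nevertheless above 0 in 30 of 35 genes, against 45.7% of all genes, and its median was 0.26 against -0.0197 over all genes. The medians were 0.21 for rod genes (10 of 11 above 0), 0.23 for cone genes (6 of 9) and 0.33 for shared genes (14 of 15). Without pair 3 only 13 of the 35 stayed above 0, and the medians became -0.0628 for rod, -0.139 for cone and -0.0131 for shared genes. Leaving out the array of crush eye 2 or of crush eye 3, with no pairing, gave 31 and 30 genes above 0. P-values from the paired limma fit set a change against the spread of the pair differences, moderated over all probe sets tested. Having only 3 pairs limits the precision of every value.

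The 3 pairs went different ways. In pair 1, 33 of 35 photoreceptor genes were lower in the crushed eye, against 46.9% of all genes, with medians of -0.188 for rod, -0.26 for cone and -0.208 for shared genes. In pair 2, 21 of 35 were higher in the crushed eye, against 38.9% of all genes. The pair 2 median was 0.27 for shared genes but -0.0199 for rod and -0.0298 for cone genes, and the values of both classes changed sign with quantile normalization (0.13 and 0.07) and with arrays scaled to the same median (0.10 and 0.09). In pair 3, 32 of 35 were higher in the crushed eye, against 57.2% of all genes, with medians of 0.75 for rod, 0.89 for cone and 0.73 for shared genes. Over all genes the medians of the 3 pairs were 0.0136, -0.101 and 0.0439. Of the RGC markers, 14 of 14 were higher in the crushed eye of pair 1 (median 0.21), against 8022 of 15103 genes. In each of pairs 2 and 3, 10 of 14 were lower (medians -0.211 and -0.121), against 9229 and 6460 of 15103 genes. The part of the RGC markers in the values of the photoreceptor genes was not tested.

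**Figure D1:**
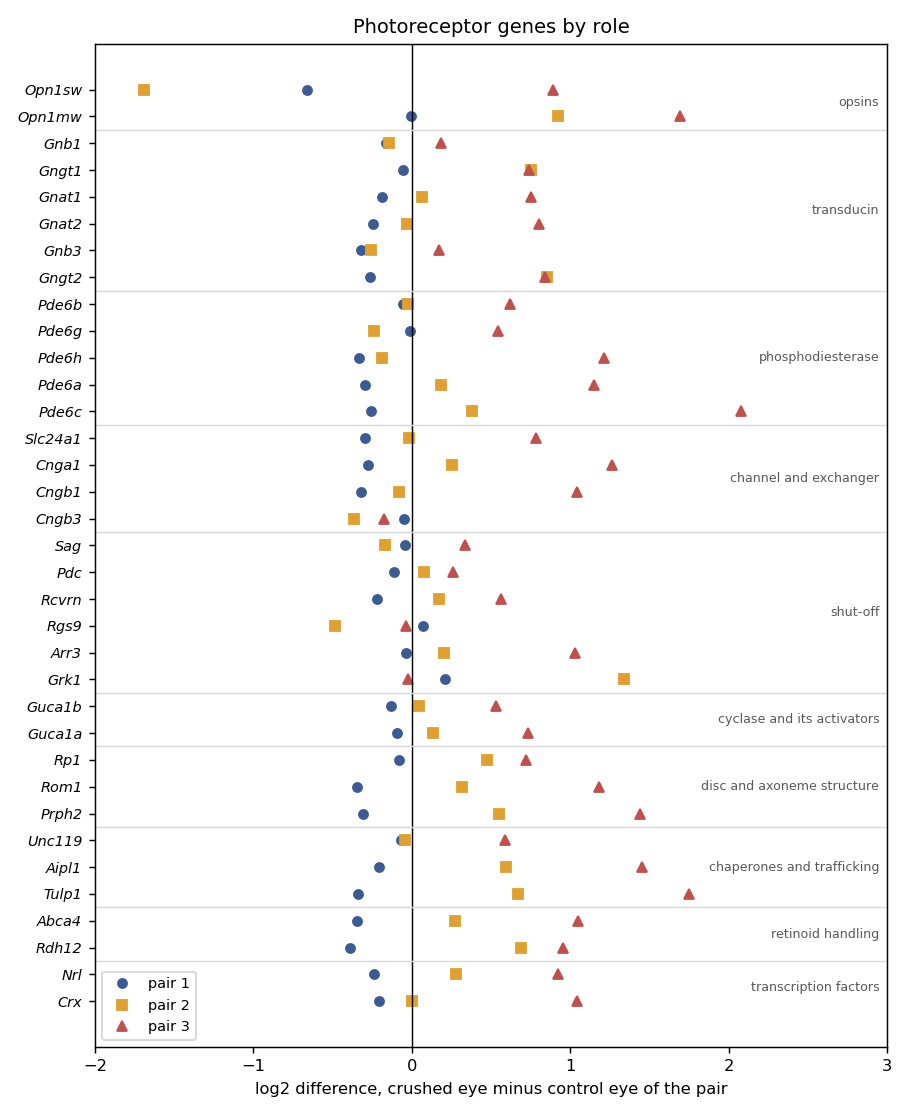
Log2 difference of the crushed eye minus the control eye (x axis) for each of the 35 photoreceptor genes (y axis, grouped by role), with a blue circle for pair 1, a yellow square for pair 2 and a red triangle for pair 3. In pair 1, 33 genes lie left of 0, and in pair 3, 32 genes lie right of it.

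Most of this variation lay among the control eyes. Control eye 3 had the lowest control value in 30 of 35 genes, against 42.5% of all genes, and the lowest value of all 6 arrays in 28 of 35, against 18.6% of all genes. The latter count was 28 under both other scalings, 29 without crush eye 2 and 28 without crush eye 3. Control eye 1 held the highest control value in 32 of 35, against 4700 of 15103 genes. It held the highest value of all arrays in 23 of 35, against 1906 of 15103 genes. The crushed eyes lay between, and in 0 of 35 genes were all crush values above all control values, against 5.69% of all genes.

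Set against the mean of the controls on the log2 scale, the median rod gene lay at 0.39, 0.04 and -0.475 in control eyes 1, 2 and 3 and at 0.29, 0.08 and 0.27 in crush eyes 1, 2 and 3. The SD between eyes of these medians was 0.44 in controls and 0.11 after crush. Cone genes lay at 0.50, 0.08 and -0.636 in the controls and at 0.22, -0.0866 and 0.46 in the crushed eyes (SD 0.57 and 0.28). For shared genes the values were 0.51, -0.102 and -0.425 in the controls and 0.39, 0.25 and 0.31 in the crushed eyes (SD 0.47 and 0.0708). In all 3 classes control eye 1 was the highest array and control eye 3 the lowest, so the control range enclosed every crushed eye.

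**Figure D2:**
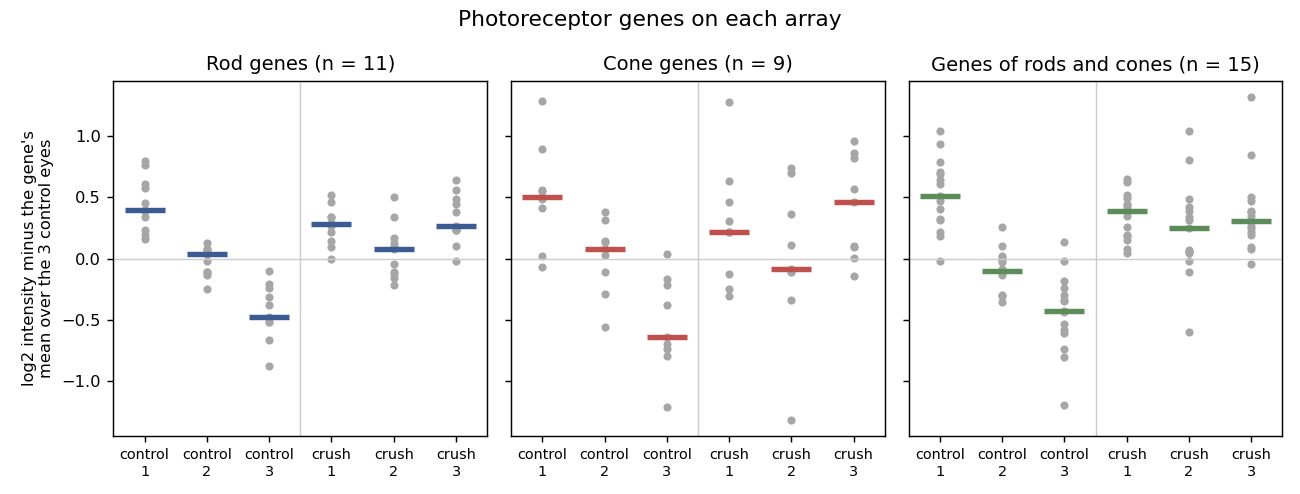
Log2 intensity of each gene minus its mean over the 3 control eyes (y axis) on the 6 arrays (x axis), for rod, cone and shared genes, with a grey point per gene and a coloured bar for the median. The median rod gene runs from 0.39 in control eye 1 to -0.475 in control eye 3, and the 3 crushed eyes lie between.

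For single genes the log2 range over the control eyes was wider than that over the crushed eyes in 30 of 35, against 35.9% of all genes. This held for 11 of 11 rod, 6 of 9 cone and 13 of 15 shared genes, and the count was 33 without pair 2 and 29 without pair 3. It was 22 without pair 1, against 41.5% of all genes in that comparison. Among marker lists of other cells the control range was the wider one in 2 of 14 RGC, 4 of 9 amacrine, 5 of 11 bipolar, 5 of 12 Muller, 2 of 4 astrocyte, 3 of 7 microglia, 4 of 5 endothelial and 0 of 10 pigment epithelium markers. The median range was 0.93 over control eyes and 0.36 over crushed eyes. In 34 of 35 genes the control range exceeded the size of the log2 fold change, and Cngb3 was the exception. The share over all genes was not computed, so this count is not read as particular to photoreceptor genes. The summed intensity of the 35 genes was 162375, 121150 and 94049 in control eyes 1, 2 and 3, a 1.73-fold range, and 144261, 128881 and 152030 in crush eyes 1, 2 and 3, a 1.18-fold range. The same ratio of highest to lowest sum among the controls was 1.66 for rod, 2.07 for cone and 1.75 for shared genes. It was 1.03 for RGC markers and ran from 1.12 (endothelial) to 1.44 (microglia) for the other marker lists. After crush it was 1.25 for RGC markers and ran from 1.05 (bipolar) to 2.82 (pigment epithelium) for the others.

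**Figure D3:**
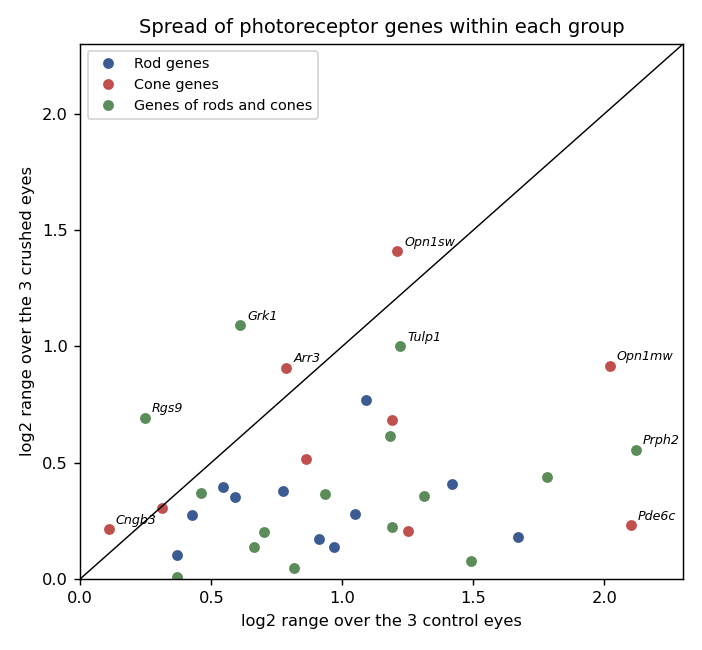
Log2 range over the 3 control eyes (x axis) against the log2 range over the 3 crushed eyes (y axis) for the 35 photoreceptor genes, coloured by cell class, with a line of equal ranges. A point below the line has a wider range among controls, as 30 of the genes do.

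The cone opsins absorb the light in cones, and their log2 fold changes had opposite signs, although both were lower in the crushed eye of pair 1 and higher in that of pair 3. Opn1mw, the medium-wavelength opsin, had intensities of 532, 148 and 131 in control eyes 1, 2 and 3 and of 529, 281 and 423 in crush eyes 1, 2 and 3. Control eye 1 matched the highest crushed eye and the other controls lay under all 3 crushed eyes, so the groups overlapped. The log2 fold change was 0.87 ± 0.33 (SE, 3 pairs), with an unadjusted p of 0.0445 and an adjusted p of 0.642 from limma, and the pairs gave -0.00631, 0.92 and 1.69. Opn1mw is the 1 gene past the unadjusted threshold, and the log2 fold change stayed above 0 in all alternatives. Its p was 0.153 without the pairing, and 0.108 and 0.248 when crush eye 2 or crush eye 3 was left out as well. It was 0.00616 without pair 1 (log2 fold change 1.31), 0.116 without pair 2 (0.84), 0.182 without pair 3 (0.46) and 0.0242 with an intensity trend and robust prior.

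Opn1sw, the short-wavelength opsin, had intensities of 1712, 1667 and 738 in the controls and of 1082, 516 and 1371 after crush. Crush eye 2 was the lowest array and control eye 3 the next lowest, and the groups overlapped. Its log2 fold change was -0.487 ± 0.48 (SE, adjusted p = 0.776, limma), with pairs at -0.663, -1.69 and 0.89. A dimmer probe set of the gene gave 0.03, with pairs at -0.0998, -0.334 and 0.525. The log2 difference of Opn1mw minus Opn1sw was -1.69, -3.49 and -2.49 in the controls and -1.03, -0.88 and -1.7 in the crushed eyes. The group means of this within-array difference were apart by 1.36, with every crushed eye but crush eye 3 above all controls and crush eye 3 just below control eye 1 (two-sided exact permutation test without pairing, p = 0.2, smallest possible 0.1). Within pairs it was higher in the crushed eye in 3 of 3, by 0.66, 2.61 and 0.80, where a two-sided exact sign-flip test over 3 pairs gives p = 0.25, the smallest it can reach. That difference cannot be read as a ratio of the opsins, since 2 probe sets do not share a scale. It was not among the planned results and was not computed with the dimmer probe set of Opn1sw.

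Transducin couples the opsins to phosphodiesterase, and its 3 subunits have rod and cone forms. Gnat1, the rod alpha subunit, had intensities of 10394, 7945 and 5312 in the controls and of 9123, 8297 and 8943 after crush. The crushed eyes lay within the control range and differed little among themselves (SD 434 against 2542 in the controls). The log2 fold change was 0.21 ± 0.22 (SE, adjusted p = 0.786, limma), with pairs at -0.188, 0.06 and 0.75. Gnat2, its cone counterpart, had 2159, 1617 and 906 in the controls and 1819, 1584 and 1577 after crush. Here too control eyes 1 and 3 were the extremes, and the log2 fold change was 0.17.

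Gngt1, the rod gamma subunit, which has GGATTA before its start, departed from this picture. Its intensities were 8779, 5832 and 6474 in the controls and 8441, 9802 and 10782 after crush, so that crush eyes 2 and 3 lay above all controls and control eye 2 was the lowest array. Its log2 fold change of 0.48 ± 0.21 (SE) had an unadjusted p of 0.0713 and an adjusted p of 0.642 (limma), and the unadjusted p was 0.0433 without the pairing. The other probe sets of Gngt1 gave 0.29, 0.42 and 0.0182, and on the brighter pair of these crush eye 2 lay just below control eye 1 (6563 against 6568 and 6584 against 6799). Gngt2, the cone gamma subunit, was near it with 934, 617 and 514 in the controls, 777, 1112 and 919 after crush, and a log2 fold change of 0.47 (adjusted p = 0.66). Gnb1, a beta subunit used by rods and by many other neurons, had 10660, 9791 and 8256 in the controls and 9500, 8843 and 9376 after crush. Its log2 fold change was -0.0432, and it changed sign to 0.00704 with quantile normalization. A dimmer probe set of Gnb1 gave 0.36. Gnb3, the beta subunit of cones that ON bipolar cells use as well, was at -0.137.

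Phosphodiesterase 6 breaks down cyclic GMP and is the effector of the cascade. All 5 of its measured subunits had a log2 fold change above 0, a value lower in the crushed eye in pair 1, and their lowest array in control eye 3, and none passed the test. Pde6c, the cone catalytic subunit, had intensities of 2053, 1375 and 477 in the controls and of 1714, 1789 and 2012 after crush. Its lowest control was 0.233 of its highest, and the crushed eyes stayed within a log2 range of 0.23. The log2 fold change was 0.73 ± 0.45 (SE, adjusted p = 0.679, limma), with pairs at -0.26, 0.38 and 2.08. Pde6h, the cone inhibitory subunit, had 4682, 3369 and 2050 in the controls and 3708, 2952 and 4734 after crush, with crush eye 3 highest and control eye 3 lowest, and the log2 fold change was 0.23. The rod subunits Pde6a, Pde6b and Pde6g gave 0.34, 0.18 and 0.10.

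**Figure D4:**
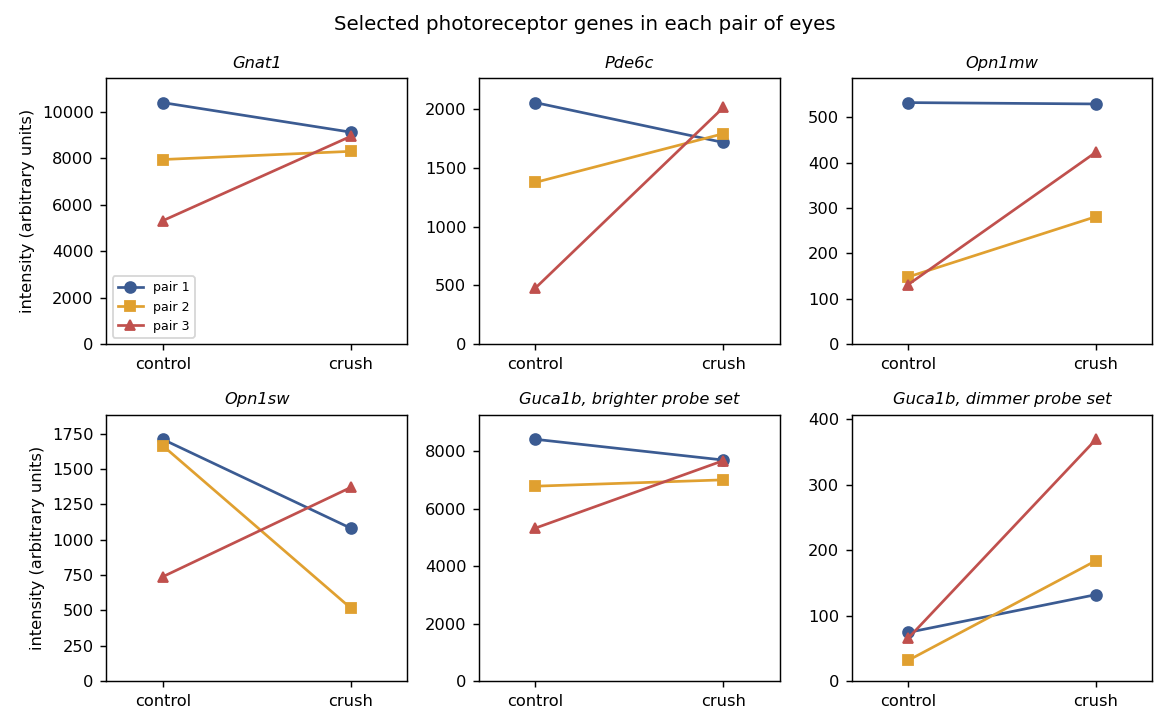
Intensity (y axes, arbitrary units from 0) in the control and the crushed eye of each pair for Gnat1, Pde6c, Opn1mw, Opn1sw and both probe sets of Guca1b, with a line per pair. Pair 3 starts lowest in the controls of Gnat1 and Pde6c, at 5312 and 477, and ends near the other pairs after crush.

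The channels that cyclic GMP holds open gave 2 values above 0 and 1 below. Cnga1 and Cngb1, the rod subunits, had log2 fold changes of 0.41 and 0.21, and Slc24a1, the rod exchanger that removes calcium, had 0.16. Cngb3, the cone beta subunit, was singled out after its values were seen. It had 806, 864 and 869 in the controls and 778, 672 and 769 after crush, which placed all crushed eyes below all controls, as in 1 of 35 genes against 5.32% of all genes. It was also the 1 gene of the 35 lower in all 3 pairs, against 15.0% of all genes, with a log2 fold change of -0.198 ± 0.14 (SE, adjusted p = 0.709, limma). Its control range of 0.11 on the log2 scale was the narrowest of the 35 genes, and control eye 3 was its highest array.

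Of the genes that end the light response, several did not share the low values of control eye 3. Sag, rod arrestin, had intensities of 11420, 10295 and 8487 in the controls and of 11074, 9151 and 10717 after crush, with control eyes 1 and 3 again at the ends and a log2 fold change of 0.04. Pdc, phosducin, which binds the beta and gamma subunits of transducin, had 8393, 7337 and 6505 in the controls and 7778, 7748 and 7797 after crush. Its crushed eyes agreed within an SD of 24.9 against 946 in the controls, and the log2 fold change was 0.0768. Rgs9, which speeds the GTPase of transducin, gave -0.152 and had its lowest value, 805, in crush eye 2 and its highest, 1338, in control eye 3. Grk1, the opsin kinase, was dim, at 44.2, 28.9 and 34.9 in the controls and 51.0, 73.1 and 34.3 after crush (log2 fold change 0.51). Rcvrn, recoverin, which holds the kinase in check, gave 0.17.

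Arr3, cone arrestin, was read by 3 probe sets that differed. The brightest had 697, 404 and 425 in the controls and 679.7, 464 and 871 after crush, and its log2 fold change of 0.40 had an unadjusted p of 0.155. The other probe sets, singled out after their values were seen, gave 0.98 (unadjusted p = 0.0397) and 0.82 (unadjusted p = 0.0132), both with an adjusted p of 0.642 from limma. The first of them had 327, 118 and 90.2 in the controls and 310.1, 289 and 298 after crush, so control eye 1 lay above all crushed eyes and the other controls below. The dimmest had 151, 46.9 and 53.1 against 191, 80.8 and 135, higher in the crushed eye of every pair.

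The activators of guanylate cyclase, which sense calcium, followed the common picture on their bright probe sets. Guca1a had 7295, 4844 and 3823 in the controls and 6836, 5311 and 6352 after crush, with a log2 fold change of 0.26. Guca1b had 8424, 6789 and 5327 in the controls and 7701, 7010 and 7682 after crush, with a log2 fold change of 0.15 ± 0.18 (SE, adjusted p = 0.82, limma). In both, the crushed eyes lay inside the control range. A dimmer probe set of Guca1b, singled out after its values were seen, read 74.1, 31.3 and 65.0 in the controls and 132, 184 and 369.6 after crush, with all crushed eyes above all controls. On this probe set limma gave 1.96 ± 0.37 (SE) on the log2 scale, higher in 3 of 3 pairs, with an unadjusted p of 0.00285 that became 0.642 after adjustment. The 2 probe sets of this gene therefore gave unequal changes on the same arrays, and the reason was not tested.

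The remaining shared genes build, supply or switch on the outer segment. Disc rim proteins Prph2 and Rom1 gave log2 fold changes of 0.56 and 0.39, and Rp1, a protein of the axoneme, gave 0.37 with another, dimmer probe set at -0.298. Rom1 had 3485, 2323 and 1240 in the controls and 2745, 2896 and 2817 after crush, and the 3 crushed eyes of Rp1, at 4593, 4445 and 4555, were as close together. Prph2 was dim, between 18.3 and 79.9. Of the chaperones and transport factors, Aipl1, which folds phosphodiesterase 6, gave 0.61, Tulp1 0.69 and Unc119, a carrier of transducin alpha, 0.16 (5354, 4668 and 3892 in the controls, 5102, 4530 and 5855 after crush). The retinoid enzymes and transporters Rdh12 and Abca4 gave 0.42 and 0.33. The transcription factors Nrl, which directs the rod fate, and Crx, named above for its letters, gave 0.32 and 0.28. On the probe sets used, the adjusted p of these genes was at least 0.651, and it was 0.642 on the dimmer one of Rp1.

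The spread among controls ran through nearly every step of the cascade. The ratio of the highest to the lowest control sum was 1.52 for transducin, 1.92 for phosphodiesterase, 2.02 for channels and exchanger, 1.72 for the cyclase activators, 2.1 for disc and axoneme genes, 2.16 for the transcription factors and 1.36 for the shut-off genes. After crush the ratios of the same groups ran from 1.0 for disc and axoneme genes to 1.34 for the transcription factors, and the opsins were wide in both groups (2.58 in controls and 2.25 after crush). Bright genes had a smaller median difference in pair 3 than dimmer ones, with no test. The median log2 difference in pair 3 was 0.62 for the 11 genes with a mean intensity of at least 5000, 1.04 for the 16 genes from 1000 to 5000 and 0.99 for the 8 genes under 1000.

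Other genes known from photoreceptors, kept in a list apart, also had their highest median in control eye 1 and their lowest in control eye 3. Of 39 such genes 36 were measured, and 26 had a log2 fold change above 0 (median 0.25), against 45.7% of all genes. In pair 3, 35 were higher in the crushed eye, against 57.2% of all genes. Control eye 3 was the lowest of all arrays in 25 of 36, against 18.6% of all genes. Control eye 1 was the highest of all arrays in 17 of 36, against 1906 of 15103 genes. The control range was the wider one in 29 of 36, against 35.9% of all genes. That count was 23 without pair 1 and 23 without pair 3, against 41.5% and 33.7% of all genes. By the unadjusted p under 0.05, 4 were higher after crush, against 2.76% of all genes, and 0 were lower, against 2.27%. Each of the 4 had an adjusted p of 0.642 (limma). They were Cabp4, a calcium-binding protein of the photoreceptor synapse (log2 fold change 0.79), Fscn2, an actin-bundling protein of the outer segment (0.78), Mak, a kinase of the photoreceptor cilium (0.65), and Samd7, a transcriptional repressor of photoreceptors (0.64). Without the pairing 1 of the 36 was higher, and with crush eye 2 left out as well 0 were.

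Lists of markers of other cells gave other patterns on the same arrays. Bipolar cell markers, whose cell bodies lie in the inner nuclear layer between photoreceptors and the ganglion cell layer, summed to 23598 to 27051 in the controls and to 21282 to 22417 after crush. Of their 11 measured genes 0 had a log2 fold change above 0 (median -0.327), against 45.7% of all genes. Cabp5, Gng13 and Lhx4 were lower by the unadjusted p, against 2.27% of all genes. Isl1, which also stands in the RGC list, gave 4942, 5449 and 5040 of the sums in control eyes 1, 2 and 3. Muller cell markers summed to 48252 to 54527 and 45609 to 48831, with 2 of 12 above 0 and Aqp4 lower by that p (-0.365). Amacrine cell markers summed to 34580 to 39626 in the controls and to 30972 to 35396 after crush, with 1 of 9 above 0 (median -0.119). Microglia markers summed to 3490 to 5039 and 3623 to 4558, with 5 of 7 above 0. Endothelial markers summed to 7275 to 8147 and 7087 to 8403, with 3 of 5 above 0. No amacrine, microglia or endothelial marker passed the unadjusted p. Astrocyte markers summed to 4953 to 6030 and 6015 to 6894, with 3 of 4 above 0. Of these Gfap (0.85) and Pdgfra (0.40) were higher by the unadjusted p and S100b was at 0.15, while Aldh1l1 was at -0.308 with every pair below 0. RGC markers summed to 58882 to 73533 after crush, and 0 of the 14 passed the unadjusted p.

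Markers of the pigment epithelium, the layer that touches the photoreceptor outer segments, summed to 5270 to 6099 in the controls and to 4938 to 13904 after crush over 10 measured genes. The log2 fold change was above 0 in 6 and below 0 in 4 of them (Tyrp1 -0.402, Otx2 -0.244, Slc16a8 -0.0296 and Best1 -0.0137). Ttr (2.32), Rgr (1.3) and Lrat (0.59) were higher by the unadjusted p, each with an adjusted p of 0.642. Otx2 is also a photoreceptor factor and stands in the list of other photoreceptor genes. Without it the 9 remaining markers summed to 1810, 1842 and 2354 in control eyes 1, 2 and 3 and to 3862, 3074 and 9944 in crush eyes 1, 2 and 3. All crushed eyes then lay above all controls, and control eyes 1 and 2 had nearly the same sum. Ttr gave 508, 493 and 948 of these sums in the controls and 2332, 1733 and 7355 after crush. The separation of the sums rested on this gene. Gene by gene, all crush values lay above all control values in 4 of the 10 markers, against 5.69% of all genes. These were Ttr, Rgr, Lrat and Rdh5 (log2 fold change 1.15, unadjusted p = 0.0573, limma). The part of any of these lists in the values of the photoreceptor genes was not tested.

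**Figure D5:**
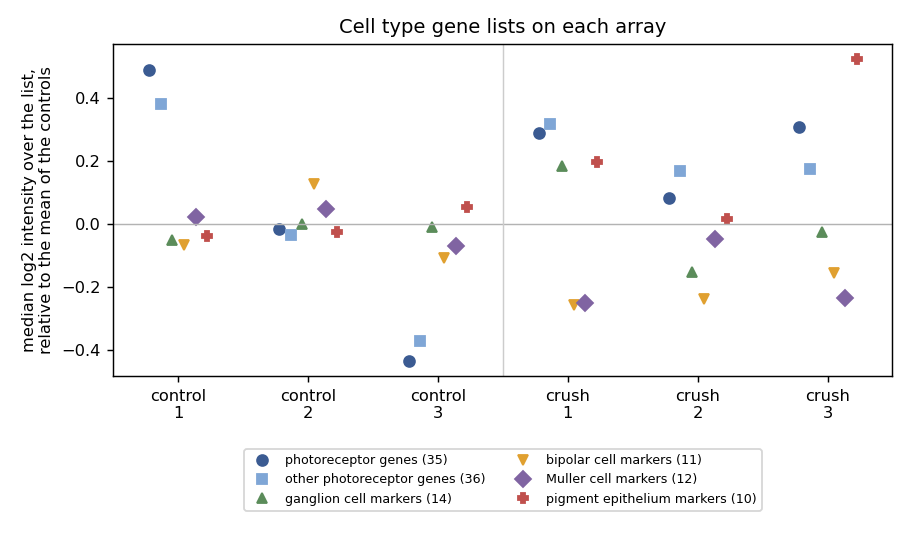
Median log2 intensity over each list, relative to the mean of the 3 controls (y axis), on the 6 arrays (x axis), with 1 symbol per list and the number of genes in the key. Both photoreceptor lists are highest in control eye 1 and lowest in control eye 3, while the RGC markers stay between -0.0517 and 0.00105 in the controls.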

How the data were processed

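RNA of the laser-captured ganglion cell layer was hybridized to Affymetrix Mu430 arrays, 1 per eye (3 control, 3 crush). The deposited values are linear signal intensities, computed by the authors in dChip (invariant set normalization, PM/MM model). Of 45101 probe sets, 64 controls were left out, and 34945 had 1 gene symbol in the platform annotation, 932 several and 9160 none.

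A floor of 16 was applied to the intensities before the log2 transform, and 33169 probe sets whose mean reached 40 went into limma 3.58.1 (R 4.3.3). The eye number was the blocking factor. Benjamini-Hochberg adjustment covered all of these probe sets. Controls were fellow eyes, and deviations of same-numbered eyes correlated at 0.154, 0.125 and 0.297 (other combinations -0.264 to 0.131). The pairing by number was assumed, and these correlations do not settle it. The code was tested on simulated data. Ratios of 3′ to 5′ probe sets ran from 6.65 to 10.5 for Actb and from 4.62 to 7.54 for Gapdh, and each array had 6876 to 7219 probe sets below the floor. Arrays have no read depth.

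The genes and lists were chosen with earlier results of these data known. Values on every array are given for genes past an unadjusted p under 0.05 and for the 4 brightest rod, cone and shared genes, and other genes shown that way were singled out later. Alternatives covered the block, floor, filter, scaling, prior, the methods' paired t-test, averaging of probe sets and the arrays used. Those for the counts of genes above 0 and of genes lowest in control eye 3 were added after seeing the data, as were the counts of ranges without a pair, the pigment epithelium sums without Otx2 and the sign-flip test. The difference of the cone opsins and its permutation test were not among the planned results.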

Additional observations from a re-analysis of the deposited data

How the results depend on the processing

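Fewer eyes or another test moved the counts past the unadjusted p under 0.05. For the photoreceptor genes, 1 higher became 0 with a floor of 64, without the intensity filter, with the methods' paired t-test (alone, with its ratio and difference limits or after Benjamini-Hochberg) and without both crush eye 2 and the pairing, and 3 with an intensity trend and robust prior or the mean of all probe sets. Leaving out a pair gave 0 to 9 higher (9 without pair 1, against 2.69% of all genes) and 0 to 1 lower (1 without pair 3, against 2.33%). For the other photoreceptor genes, 4 higher became 1 without the replicate block, 0 under the same floor, filter and t-test, 7 with the trend, 0 without both the block and crush eye 2, and 1 without both the block and crush eye 3 (where 1 was lower), and 1 to 8 without a pair. The count of photoreceptor genes above 0 was 13 to 33 without a pair. Without the replicate block 1 photoreceptor gene was higher, as with it. Class medians without a pair ran from -0.0628 to 0.41 for rod, -0.139 to 0.51 for cone, -0.0131 to 0.60 for shared and -0.00548 to 0.44 for the other photoreceptor genes. Signs turned for Gnb1 (0.00704 with quantile normalization, 0.159 with the mean of probe sets, and -0.157 to 0.0183 over the fits without a pair), for Opn1sw (-1.18 to 0.115, above 0 without pair 2), and, below 0 without pair 3, for Sag (-0.107 to 0.146), Gnat1 (-0.0628 to 0.407), Pde6h (-0.263 to 0.509), Gnat2 (-0.139 to 0.385), Pdc (-0.0156 to 0.17), Guca1b (-0.0416 to 0.287) and Unc119 (-0.0565 to 0.273). The causes were not tested. A low signal, as for Prph2 and Grk1, limits what can be detected.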
